A study of Homo sapiens with 6 samples.

Results

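The mitosis and spindle genes described here are 40 genes of cell division that were listed by name, and all 40 were found among the 36328 gene names on the arrays. Each gene was represented by its brightest probe, the probe with the highest mean log2 signal over the 6 arrays. The samples were MOLT-4 cells, an established line from a T-cell acute lymphoblastic leukaemia, transfected with an empty vector (mock, 3 arrays) or with NUDT16 (3 arrays). NUDT16 is an RNA decapping enzyme, and the series concerns its epigenetic inactivation in this leukaemia. From both groups, RNA with an m3G or m7G cap was pulled down with an antibody against the cap and hybridised to a 1-colour Agilent expression array. All 6 arrays therefore share the cell line and the pull-down, and differ in the vector. The comparison asks which capped transcripts have more or less signal in the pull-down of cells given NUDT16. The total RNA that went into the pull-down was not analysed here, so RNA abundance and capping cannot be told apart. In such bulk samples, fewer cells in mitosis and less RNA per cell cannot be told apart either. The labels do not say whether replicates came from separate cultures, so p-values measure only the spread between these arrays.

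Mitosis begins when cyclin-bound CDK1 becomes active, with help from Polo-like and Aurora kinases. Kinetochores then attach chromosomes to spindle microtubules, and the spindle checkpoint holds the cell until all are attached. The anaphase-promoting complex (APC/C) then marks securin and cyclin B for destruction, separase cuts cohesin, and the cell divides. Transcripts of these genes rise together late in the cell cycle. Their promoters often carry a cell cycle genes homology region (CHR, TTTGAA or TTTAAA) and CCAAT boxes, which are read by the DREAM and MuvB complexes and by NF-Y. All of these are ordinary polymerase II messages with an m7G cap.

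Promoter sequence is shown because it holds the element by which these genes are co-regulated and ends next to the base that carries the cap. RefSeq promoter windows (GRCh38.p14, 250 bases before to 50 after the start of transcription) were matched by symbol for 34 of the 40 genes, giving 44 windows, some genes having several starts. Below are the 120 bases that end just before the start, 5′ to 3′, for 6 of them that hold both motifs: 3 whose signal was higher and 3 whose signal was lower in NUDT16 arrays in pairs 1 and 3, a pair being the mock and NUDT16 array of 1 replicate number. Capitals mark CHR-type motifs and CCAAT boxes on either strand. Read from the other strand, TTTGAA appears as TTCAAA, while a CCAAT box appears as ATTGG.
CDC20 (chr1:43358861-43358980, plus strand): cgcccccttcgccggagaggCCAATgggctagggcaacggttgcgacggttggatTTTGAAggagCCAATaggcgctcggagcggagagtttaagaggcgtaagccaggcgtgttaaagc
PLK1 (chr16:23678769-23678888, plus strand): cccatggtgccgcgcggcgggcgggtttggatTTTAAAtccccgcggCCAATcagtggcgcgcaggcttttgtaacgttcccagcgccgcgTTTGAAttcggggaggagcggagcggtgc
ESPL1 (chr12:53268179-53268298, plus strand): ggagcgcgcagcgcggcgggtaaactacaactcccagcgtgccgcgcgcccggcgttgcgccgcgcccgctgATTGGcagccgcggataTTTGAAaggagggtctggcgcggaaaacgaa
KIF11 (chr10:92593010-92593129, plus strand): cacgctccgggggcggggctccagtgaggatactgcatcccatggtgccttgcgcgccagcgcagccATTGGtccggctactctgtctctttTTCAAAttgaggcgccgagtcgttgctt
PRC1 (chr15:90994536-90994655, minus strand): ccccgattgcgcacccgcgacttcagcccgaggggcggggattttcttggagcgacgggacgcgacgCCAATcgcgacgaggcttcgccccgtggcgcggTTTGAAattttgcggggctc
KIF4A (chrX:70289984-70290103, plus strand): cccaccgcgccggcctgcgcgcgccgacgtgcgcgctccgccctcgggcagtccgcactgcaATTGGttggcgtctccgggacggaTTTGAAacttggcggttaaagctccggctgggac
In each of the 6 sequences a CCAAT box lies upstream of a TTTGAA within the last 120 bases. They were picked for this and do not stand for the other members.

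Over the whole windows, searched on both strands, TTTGAA was present in 59.1% of the members' windows and in 15.2% of all 35116 RefSeq windows. TTTAAA, which reads the same on both strands, was present in 31.8% against 12.2%, and CCAAT in 75% against 34.6%. Either CHR-type motif together with CCAAT was present in 56.8% against 9.27%. By gene, 29 of the 34 had TTTGAA or TTTAAA and 28 had CCAAT. Among genes higher in pairs 1 and 3, a CHR-type motif was present in 5 of 7, among genes lower in both in 16 of 19, and among those with opposite signs in 8 of 8. A CHR-type motif together with CCAAT was present in 5 of 7, 11 of 19 and 7 of 8. A match describes these letters only and shows no binding. The first transcribed base, next to the cap, was A in 47.7% and G in 38.6% of the members' windows, against 44.4% and 33.6% of all windows.

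Detection was uneven between the arrays, which touches every result below. Of 58717 spots for cell RNA, between 39.3% and 51.1% were well above background on the mock arrays, and 42.3%, 14.6% and 52% on NUDT16 replicates 1, 2 and 3. The signal at the 75th percentile of probes detected on all 6 arrays was 224 fluorescence units on NUDT16 replicate 2 and 2700 to 7720 on the other 5. Levels below are log2 signals relative to that percentile of the same array. On this scale, probes for genes such as PAX5 and MPO that were detected on no array read -5.67 and -5.48 on NUDT16 replicate 2 but -10.28 to -8.15 elsewhere. A value near -5.7 on that array is therefore a background reading and bounds the level from above only. Members not well above background there read as high as -3.45 (CCNB1). The dimmest detected member there, CDC20, read -3.36, and CDC25B and CCNA2 read -3.30, so these lay close to the limit of detection. Both NUDT16 probes were not well above background on any array and so do not check the labels. A probe for the pseudogene NUDT16P1 was detected with NUDT16 on 3 of 3 arrays and with mock on 0 of 3, while a second NUDT16P1 probe was detected on none of the 6. Of 16 T-lymphoblast markers, 10 were detected on all 6 arrays, among them CD3D, LCK and DNTT. PAX5, MS4A1, MPO, CSF1R, HBB, COL1A1 and EPCAM were detected on none, whereas CD79A and KRT8 were detected on all 6.

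The 40 mitosis genes were all detected on all 3 mock arrays and on NUDT16 replicates 1 and 3. On NUDT16 replicate 2, 23 were detected and 17 were not. All 40 were therefore tested, and for the 17 only 2 of 3 NUDT16 arrays gave a measured level. The 17 were CCNB1, CDC25C, PLK1, AURKA, BUB1B, TTK, NEK2, CENPA, KIF4A, KIF11, KIF14, KIF20A, TPX2, TOP2A, INCENP, ECT2 and ANLN.

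**Figure D1:**
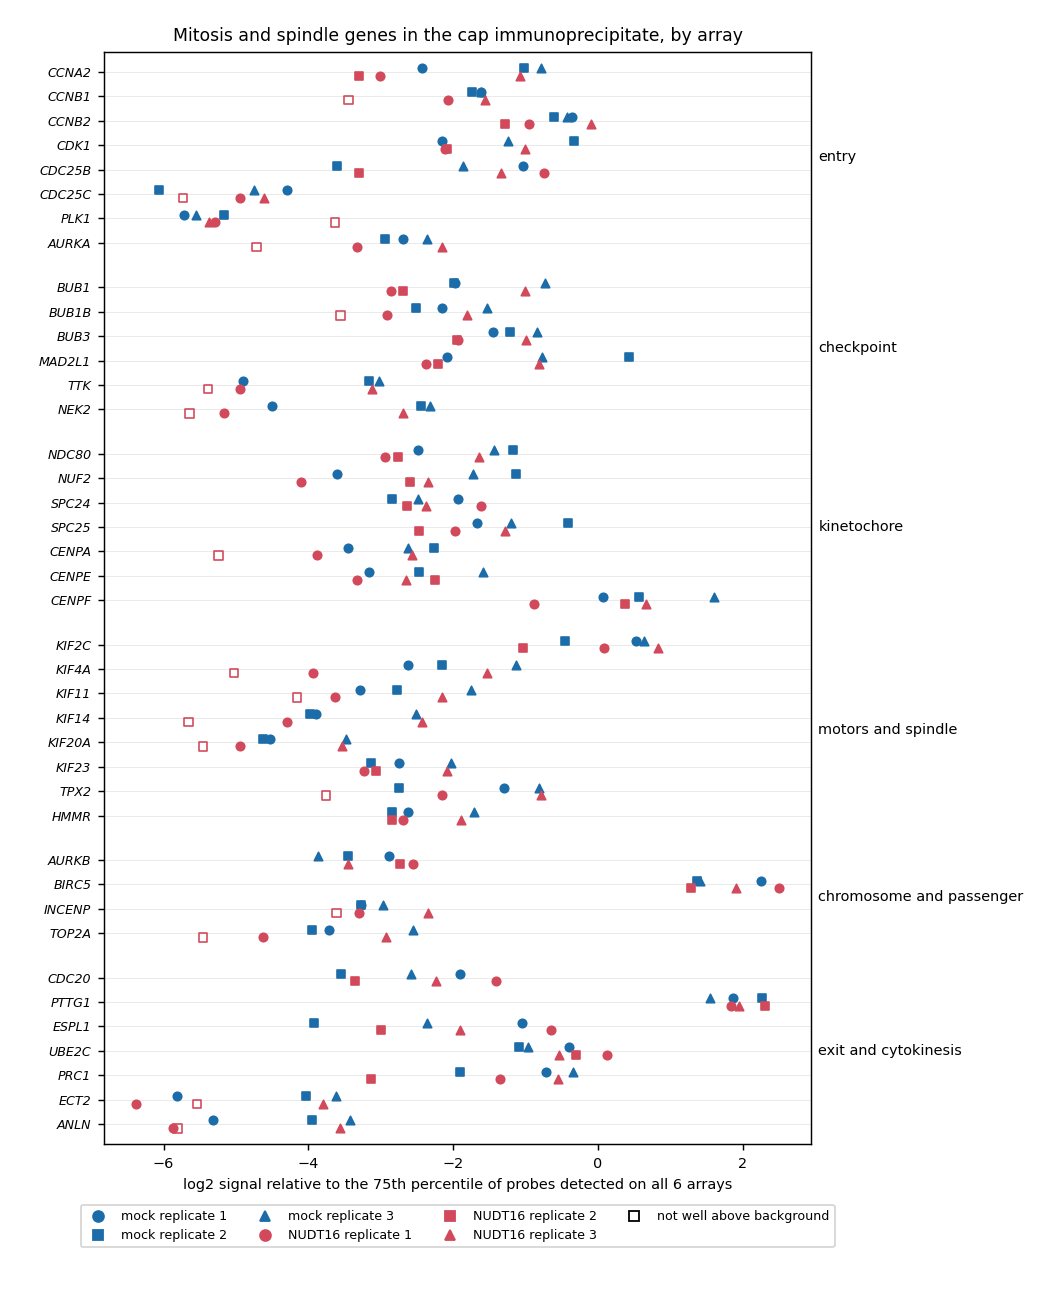
Level of each of the 40 genes on each array, as log2 signal relative to the 75th percentile of probes detected on all 6 arrays (horizontal axis), grouped by role. Blue points are mock and red points NUDT16 arrays, the marker shape gives the replicate number, and open squares are the 17 genes not well above background on NUDT16 replicate 2. Mock and NUDT16 points overlap for all 40 genes, and levels are not comparable between genes because each comes from its own probe.

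None of the 40 genes differed between NUDT16 and mock arrays beyond the spread between arrays. In limma without a block, 0 of 40 passed an adjusted p of 0.05, where 0.00563% of the 17765 probes tested did, a single probe, that for NUDT16P1. Every member had an adjusted p of 0.999, and an unadjusted p under 0.05 was seen for 0 members, against 8 probes in all. The groups overlapped for all 40, where 0.31% of probes lay wholly above and 0.281% wholly below the mock arrays. The median SE of a difference was 0.68 on the log2 scale without a block and 0.35 when replicate number was fitted as one.

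The differences were mostly below 0. NUDT16 minus mock was lower than 0 for 30 genes and higher for 10, with a median of -0.62, ranging from -1.52 for KIF4A to 0.71 for PLK1. Over all probes tested the median was -0.11, with 10089 lower and 7676 higher. Over the 23 members detected on all 6 arrays the median was -0.32, against 0.16 over the 6582 probes so detected. The counts and the median depend on the background correction and the scaling. With normexp background correction 19 of 40 were lower and the median was 0.05 (all probes 0.47). With no scaling 40 of 40 were lower and the median was -1.62 (all probes -1.10). Under the other scalings the median was -0.54 to -0.56. The gap to the median of all probes tested lay mostly in pair 2. Within same-numbered pairs of arrays, the members' median was -0.44, -0.92 and -0.05 in pairs 1, 2 and 3, and that of all probes -0.36, 0.09 and -0.06. On replicates 1 and 3 alone the members' median was -0.20 and that of all probes -0.22, so their gap of -0.52 became 0.02. NUDT16 replicate 2 is also the array with 14.6% of spots detected. The part of that low detection in the members' values was not tested.

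The same-numbered arrays lay on the same slide, and their deviations from the group means correlated, most weakly in pair 2. For a typical member the 3 mock arrays spanned 1.35 on the log2 scale (median; lowest 0.13 for CCNB1, highest 2.88 for ESPL1). The median absolute difference within a pair was 0.45 in pair 1, 1.03 in pair 2 and 0.23 in pair 3. A span over 3 arrays tends to exceed a difference within a pair, so the measures are not alike. With the replicate number as a block, 0 of 40 members passed, again with 0.00563% of all probes called, and the lowest adjusted p among members was 0.467. NUF2, KIF4A, TOP2A and NEK2, all lower in NUDT16, had unadjusted p-values of 0.0411, 0.0187, 0.0339 and 0.044 in that fit, as 1734 of all probes had one under 0.05.

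**Figure D2:**
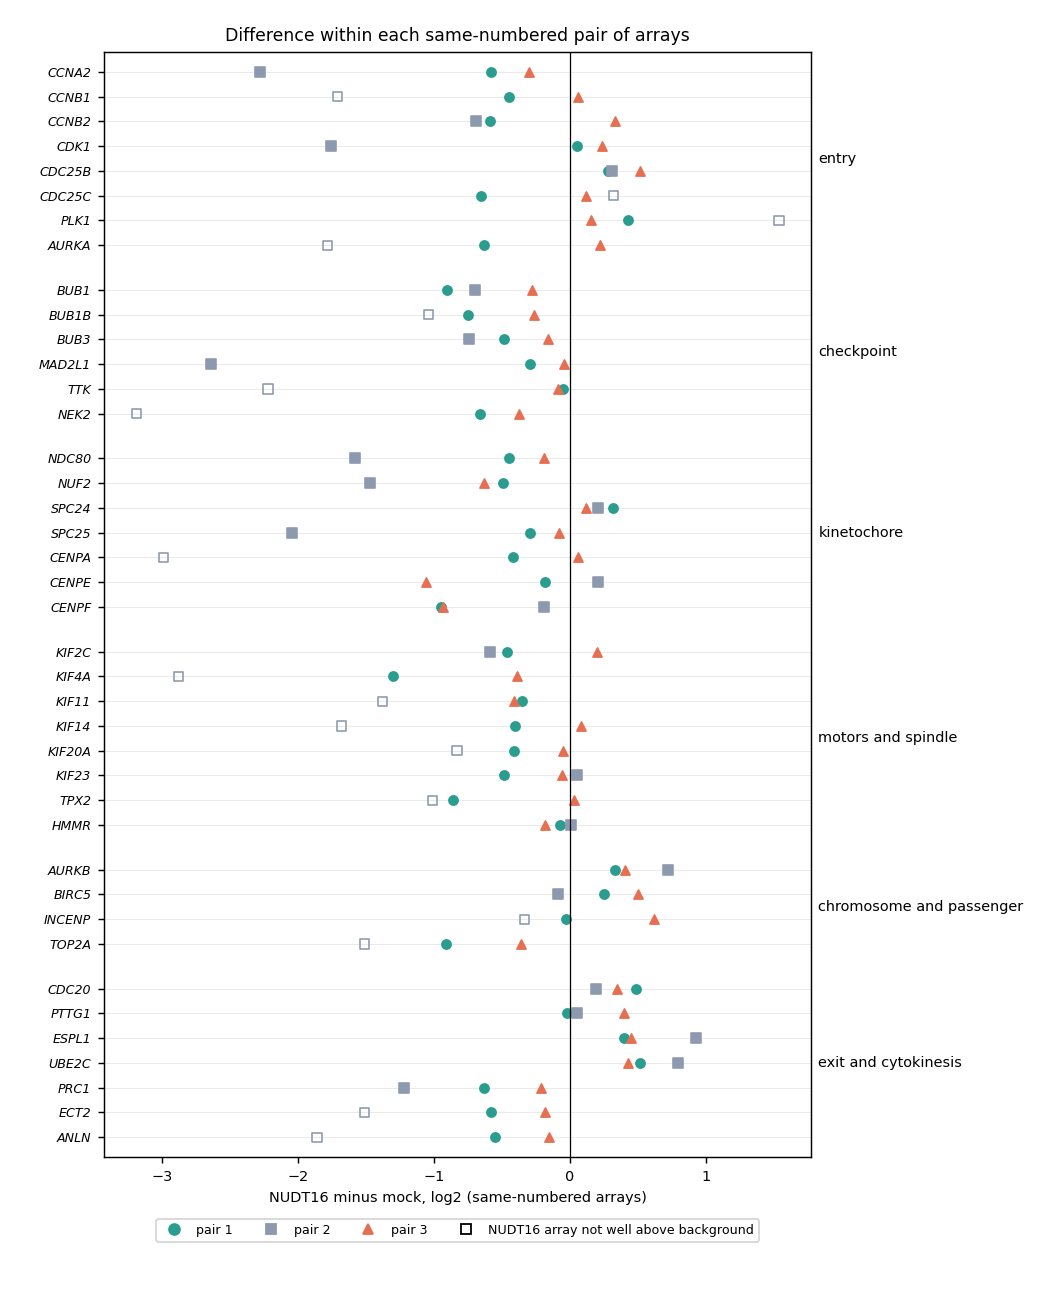
NUDT16 minus mock (log2, horizontal axis) within each same-numbered pair of arrays, for the 40 genes grouped by role. Circles, squares and triangles are pairs 1, 2 and 3, and open squares mark genes not well above background on NUDT16 replicate 2. Pair 2 is spread from -3.19 for NEK2 to 1.54 for PLK1, both not well above background, while pair 3 lies near 0 for most genes.

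In pairs 1 and 3, which hold measured levels for every member, 9 genes were higher in NUDT16 in both and 21 were lower in both. Over all probes tested, 20.5% were higher in both pairs and 48.3% lower in both. The members' shares are thus close to those of the array as a whole. The 9 higher were CDK1, CDC25B, PLK1, SPC24, AURKB, BIRC5, CDC20, ESPL1 and UBE2C. Among the 23 genes detected on all 6 arrays, 6 were higher in all 3 pairs (CDC20, CDC25B, AURKB, SPC24, ESPL1 and UBE2C), where 27% of such probes were. A further 9 of the 23 were lower in all 3 pairs (CCNA2, BUB1, BUB3, MAD2L1, NDC80, NUF2, SPC25, CENPF and PRC1), where 19.3% of such probes were. Genes with no measured level on NUDT16 replicate 2 are absent from this last pair of counts, while CDC20, CDC25B and CCNA2 were close to the limit of detection there. Across the 40 members the differences of pairs 1 and 3 correlated at r = 0.60, and across all 17765 probes at r = 0.45. These are descriptions across genes, which are not replicates.

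Among the 8 genes of mitotic entry, 6 were lower and 2 higher, with a median difference of -0.40 and 0 passing the test. CCNB1, the B-type cyclin that activates CDK1 (probe at chromosome 5, positions 68471363 to 68473123, hg19), read -1.62, -1.74 and -1.61 in mock replicates 1 to 3 and -2.07, -3.45 and -1.56 in NUDT16 replicates 1 to 3. The mock arrays were within 0.13 of each other, and NUDT16 replicate 2, where the probe was not well above background, was the lowest of the 6. Its difference was -0.70 (SE 0.65, n = 3 arrays a group). CCNB2, the related cyclin, read -0.36, -0.61 and -0.43 in mock replicates 1 to 3 and -0.96, -1.29 and -0.10 in NUDT16 replicates 1 to 3, with NUDT16 arrays on both sides of the mock arrays. CCNA2, cyclin A, which acts from S phase into early mitosis, read -2.43, -1.02 and -0.79 in mock replicates 1 to 3 and -3.01, -3.30 and -1.08 in NUDT16 replicates 1 to 3, a difference of -1.05 (SE 0.75, n = 3 arrays a group). It was lower in all 3 pairs, by -0.58, -2.28 and -0.30, and its mock replicate 1 lay far below the other mock arrays.

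CDK1, the kinase that drives entry (probe at chromosome 10, positions 62552004 to 62553650, hg19), read -2.16, -0.33 and -1.24 in mock replicates 1 to 3 and -2.12, -2.09 and -1.01 in NUDT16 replicates 1 to 3. Only pair 2 was lower, so its difference of -0.49 (SE 0.67, n = 3 arrays a group) had the sign of that pair, and on replicates 1 and 3 it was 0.14. CDC25B, a phosphatase that removes the inhibitory phosphates of CDK1, read -1.04, -3.61 and -1.86 in mock replicates 1 to 3 and -0.75, -3.30 and -1.34 in NUDT16 replicates 1 to 3, so that each NUDT16 array lay above its same-numbered mock array. The related phosphatase CDC25C had pair differences of -0.65, 0.32 and 0.12, of mixed sign. AURKA, the Aurora kinase of the centrosome and spindle poles, had pair differences of -0.63, -1.78 and 0.22, again of mixed sign.

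PLK1, the Polo-like kinase that acts from entry to cytokinesis (probe at chromosome 16, positions 23692251 to 23692310, hg19), had the highest difference of the 40, 0.71 (SE 0.66, n = 3 arrays a group). Its probe was dim and read -5.72, -5.17 and -5.55 in mock replicates 1 to 3 and -5.29, -3.63 and -5.38 in NUDT16 replicates 1 to 3. The highest of these values is on NUDT16 replicate 2, where the probe was not well above background, so the difference of 1.54 in pair 2 is not a measured one. In the pairs with measured levels it was 0.43 and 0.16, and with no scaling the mean difference was -0.28, where the median of all probes was -1.10.

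All 6 genes of the spindle checkpoint were lower in NUDT16 in all 3 pairs, as were 4894 of the 17765 probes tested. In pairs 1 and 3, 48.3% of all probes were lower in both. Their median difference was -0.74, with pair medians of -0.57, -1.63 and -0.21, and 0 passed the test. BUB1B, TTK and NEK2 were not well above background on NUDT16 replicate 2, so their pair 2 differences are not measured ones. BUB1, a checkpoint kinase at the kinetochore (probe at chromosome 2, positions 111395699 to 111397340, hg19), read -1.97, -1.99 and -0.73 in mock replicates 1 to 3 and -2.86, -2.69 and -1.01 in NUDT16 replicates 1 to 3, a difference of -0.62 (SE 0.70, n = 3 arrays a group). It was detected on all 6 arrays, and NUDT16 replicate 3 lay above mock replicates 1 and 2, so the groups overlapped. BUB1B encodes BUBR1, which as part of the mitotic checkpoint complex holds CDC20 inactive, and it read -2.16, -2.52 and -1.54 in mock replicates 1 to 3 and -2.91, -3.56 and -1.81 in NUDT16 replicates 1 to 3. BUB3, the partner that carries BUB1 and BUBR1 to kinetochores, had pair differences of -0.48, -0.74 and -0.16.

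MAD2L1 encodes MAD2, which binds CDC20 when kinetochores are unattached. It read -2.08, 0.43 and -0.77 in mock replicates 1 to 3 and -2.37, -2.21 and -0.81 in NUDT16 replicates 1 to 3, so that mock replicate 2 was the highest and pair 2 held most of the difference of -0.99. TTK, the kinase MPS1 at the top of the checkpoint, differed by -0.05 and -0.09 in pairs 1 and 3, against -2.22 in pair 2. NEK2, a centrosomal kinase listed with the checkpoint genes, read -4.51, -2.45 and -2.32 in mock replicates 1 to 3 and -5.17, -5.64 and -2.69 in NUDT16 replicates 1 to 3 (probe at chromosome 1, positions 211836861 to 211836920, hg19). Its difference was -1.41 (SE 0.87, n = 3 arrays a group), the next lowest after KIF4A, and -0.66 and -0.37 in pairs 1 and 3. On replicates 1 and 3 alone the median of the 6 was -0.41, below the -0.22 of all probes.

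Of the 7 kinetochore and centromere genes, 6 were lower and 1 higher, with a median difference of -0.74 and 0 passing the test. NDC80, NUF2, SPC24 and SPC25 encode the 4 subunits of the NDC80 complex, which grips microtubule ends. NDC80 (probe at chromosome 18, positions 2610798 to 2610857, hg19) read -2.49, -1.18 and -1.44 in mock replicates 1 to 3 and -2.94, -2.76 and -1.64 in NUDT16 replicates 1 to 3, a difference of -0.74 (SE 0.65, n = 3 arrays a group). NUF2 read -3.60, -1.13 and -1.73 in mock replicates 1 to 3 and -4.10, -2.60 and -2.35 in NUDT16 replicates 1 to 3, and SPC25 had pair differences of -0.29, -2.04 and -0.08. These 3 were lower in all 3 pairs. SPC24 was higher in all 3, by 0.32, 0.21 and 0.12, although its protein sits in the same complex. The difference between SPC24 and its partners was not tested.

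CENPA, the histone H3 variant that marks centromeres (probe at chromosome 2, positions 27016914 to 27016973, hg19), read -3.46, -2.26 and -2.63 in mock replicates 1 to 3 and -3.88, -5.24 and -2.57 in NUDT16 replicates 1 to 3. Its difference of -1.11 (SE 0.74, n = 3 arrays a group) came from pair 2, where the probe was not well above background, and pairs 1 and 3 gave -0.42 and 0.06. CENPE, a kinetochore motor that moves chromosomes to the spindle equator, read -3.16, -2.47 and -1.59 in mock replicates 1 to 3 and -3.33, -2.25 and -2.65 in NUDT16 replicates 1 to 3, of mixed sign over the pairs. Its -1.06 was the lowest value of any member in pair 3.

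CENPF, a large kinetochore protein made in G2, came closest to the threshold of the members on the better detected arrays. Its probe (at chromosome 1, positions 214837308 to 214837367, hg19) was detected on all 6 arrays and read 0.07, 0.56 and 1.60 in mock replicates 1 to 3 and -0.88, 0.37 and 0.66 in NUDT16 replicates 1 to 3. Each NUDT16 array lay below its same-numbered mock array, by -0.95, -0.19 and -0.93, yet the groups overlapped. With all arrays the difference was -0.69 (SE 0.67, adjusted p 0.999 in limma). A limma fit on replicates 1 and 3 with the block gave -0.94 (SE 0.30, adjusted p 0.0501). That fit leaves 1 residual degree of freedom and borrows one spread for all probes, so that every probe has the same SE. It called 3.45% of all probes, 601 lower and 12 higher, and 0 of the 40 members.

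The 8 motor and spindle genes were all lower in the mean, with a median difference of -0.52 and 0 passing the test. KIF4A, a chromosome-bound motor that also shapes the central spindle (probe at chromosome X, positions 69640147 to 69640206, hg19), had the lowest difference of the 40, -1.52 (SE 0.86, n = 3 arrays a group). It read -2.63, -2.15 and -1.14 in mock replicates 1 to 3 and -3.94, -5.03 and -1.53 in NUDT16 replicates 1 to 3, lower in all 3 pairs by -1.30, -2.88 and -0.39, and was not well above background on NUDT16 replicate 2. On replicates 1 and 3 its difference was -0.85 (SE 0.30, adjusted p 0.0899 in limma with the block). KIF11, the motor Eg5 that pushes spindle poles apart, read -3.29, -2.78 and -1.75 in mock replicates 1 to 3 and -3.64, -4.16 and -2.16 in NUDT16 replicates 1 to 3 and was lower in all 3 pairs.

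KIF20A, which carries the passenger complex to the central spindle, had pair differences of -0.41, -0.83 and -0.05. KIF23, a subunit of the centralspindlin complex of the cleavage plane, had -0.48, 0.05 and -0.06. KIF2C, the microtubule depolymerase MCAK, read 0.53, -0.45 and 0.64 in mock replicates 1 to 3 and 0.08, -1.04 and 0.83 in NUDT16 replicates 1 to 3, with the NUDT16 arrays spanning the mock values. KIF14, a motor needed for cytokinesis, and TPX2, which activates AURKA on microtubules, were lower in pairs 1 and 2 and within 0.08 and 0.03 of their mock arrays in pair 3. HMMR, a spindle-associated protein that is also a receptor for hyaluronan, differed least in this role, by -0.07, 0.01 and -0.18.

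The 4 genes of chromosome structure and the chromosomal passenger complex divided. The complex holds AURKB, the kinase that corrects faulty attachments, with survivin (BIRC5) and the scaffold INCENP, and the differences of these 3 were 0.49, 0.22 and 0.09. AURKB (probe at chromosome 17, positions 8110655 to 8110917, hg19) read -2.89, -3.45 and -3.87 in mock replicates 1 to 3 and -2.56, -2.73 and -3.46 in NUDT16 replicates 1 to 3, a difference of 0.49 (SE 0.60, n = 3 arrays a group), higher in 3 of 3 pairs. BIRC5, also an inhibitor of apoptosis, read 2.25, 1.37 and 1.41 in mock replicates 1 to 3 and 2.50, 1.28 and 1.91 in NUDT16 replicates 1 to 3. INCENP had pair differences of -0.03, -0.33 and 0.62. TOP2A, the topoisomerase that untangles sister DNA (probe at chromosome 17, positions 38545709 to 38545768, hg19), read -3.72, -3.95 and -2.56 in mock replicates 1 to 3 and -4.63, -5.46 and -2.93 in NUDT16 replicates 1 to 3. Its difference was -0.93 (SE 0.75, n = 3 arrays a group), lower in 3 of 3 pairs, the probe not being well above background on NUDT16 replicate 2, and 0.08 with normexp background correction. None of the 4 passed the test, and under no scaling between arrays the AURKB difference turned to -0.51, where the median of all probes was -1.10.

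Of the 7 genes of mitotic exit and cytokinesis, 4 were higher and 3 lower, with 0 passing the test. The 4 higher were CDC20, UBE2C, ESPL1 and PTTG1. With the trend on probe GC content removed within arrays, as described below, their differences were -0.04, 0.76, 0.19 and 0.34. Of the other APC/C genes tested, 11 of 14 were lower. CDC20, the activator of the APC/C (probe at chromosome 1, positions 43826537 to 43826596, hg19), read -1.90, -3.55 and -2.58 in mock replicates 1 to 3 and -1.41, -3.36 and -2.24 in NUDT16 replicates 1 to 3, a difference of 0.34 (SE 0.70, n = 3 arrays a group). Each NUDT16 array lay above its partner by 0.49, 0.19 and 0.35, far less than the spread of the mock arrays, and the mean difference was -0.09 without mock replicate 2 and -0.12 without NUDT16 replicate 1. UBE2C, the ubiquitin-conjugating enzyme of the APC/C (probe at chromosome 20, positions 44445525 to 44445584, hg19), read -0.40, -1.09 and -0.97 in mock replicates 1 to 3 and 0.12, -0.30 and -0.54 in NUDT16 replicates 1 to 3, a difference of 0.58 (SE 0.58, n = 3 arrays a group). ESPL1, separase, which cuts cohesin (probe at chromosome 12, positions 53686748 to 53687109, hg19), read -1.05, -3.93 and -2.36 in mock replicates 1 to 3 and -0.65, -3.00 and -1.91 in NUDT16 replicates 1 to 3. Its difference was 0.59 (SE 0.84, n = 3 arrays a group), higher in 3 of 3 pairs, but -0.15 without mock replicate 2. PTTG1, securin, the inhibitor of separase, read 1.86, 2.26 and 1.54 in mock replicates 1 to 3 and 1.84, 2.30 and 1.94 in NUDT16 replicates 1 to 3, within 0.05 of its partner in pairs 1 and 2. With no scaling between arrays the differences of CDC20, UBE2C and ESPL1 were -0.65, -0.41 and -0.40, above the -1.10 of all probes.

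The 3 lower genes of this role act in cytokinesis. PRC1, which bundles antiparallel microtubules of the central spindle, read -0.72, -1.91 and -0.35 in mock replicates 1 to 3 and -1.35, -3.13 and -0.56 in NUDT16 replicates 1 to 3 and was lower in all 3 pairs. ECT2, the exchange factor that activates RhoA at the cell equator, had pair differences of -0.58, -1.51 and -0.18. ANLN, anillin, a scaffold of the contractile ring, had -0.55, -1.86 and -0.15. Both were not well above background on NUDT16 replicate 2. Whether the higher and the lower genes of the role differ from each other was not tested.

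For 9 members a second probe measured the same gene, which shows how far a gene's value depends on its probe. NEK2 was lower in all 3 pairs with both probes, with -0.66, -3.19 and -0.37 for the brightest and -1.19, -3.12 and -0.32 for the other. KIF4A gave -1.30, -2.88 and -0.39 with the brightest probe and -1.44, -2.07 and -0.55 with the other. CENPF gave -0.95 and -0.93 in pairs 1 and 3 with the brightest and -0.81 and -1.01 with the other, so both of its probes were lower in both pairs. In pair 2 they were far apart, at -0.19 and -2.16. The CDK1 probes differed in pair 1, at 0.05 against -1.02, where its second probe was not well above background in the NUDT16 array. In pair 3 the probes had opposite signs for SPC24, at 0.12 against -0.34, and for BUB3, at -0.16 against 0.09. In pairs 1 and 3 the CCNB1 probes gave -0.45 and 0.06 against -0.40 and 0.17, and the KIF23 probes -0.48 and -0.06 against -0.51 and -0.19. The second PLK1 probe, 0.86 and 0.58 in pairs 1 and 3, was not detected on mock replicate 2 and was not tested.

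**Figure D3:**
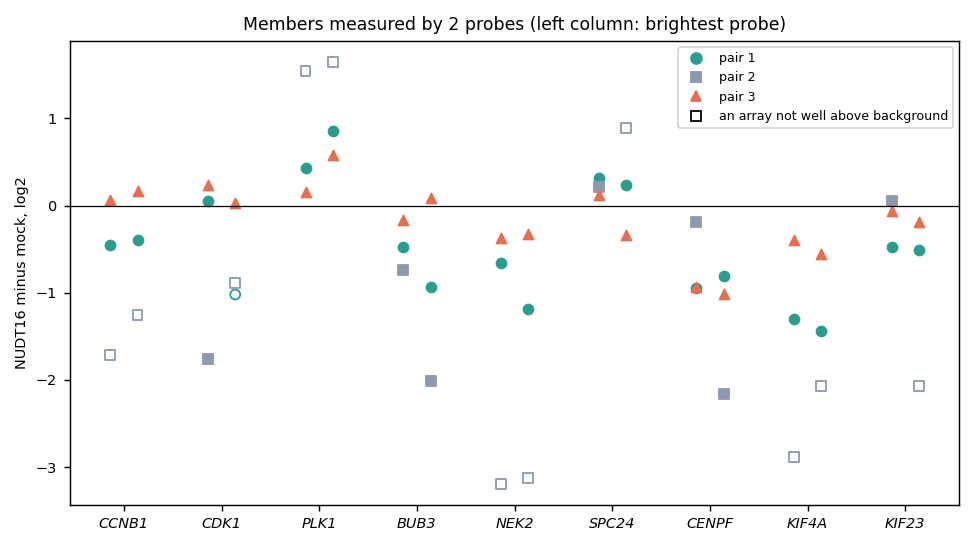
NUDT16 minus mock (log2, vertical axis) within each pair of arrays for the 9 genes with 2 probes, the brightest probe in the left column of each gene. Open markers have at least 1 array not well above background. The probes of a gene lie closer together in pairs 1 and 3 than in pair 2 for CENPF, KIF23, BUB3, CCNB1, KIF4A and SPC24, but not for CDK1, NEK2 and PLK1.

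Base composition of the probes moved with the differences in pairs 1 and 2, and also with differences between mock arrays. Across all 17765 probes the correlation of probe GC content with the difference was 0.30, 0.39 and 0.02 in pairs 1, 2 and 3, and across the 40 members 0.25, 0.25 and 0.04. For mock replicate 1 minus mock replicate 2 it was 0.19 across all probes and 0.35 across the members. For mock replicate 1 minus mock replicate 3 it was 0.26 and 0.36. Across the 6582 probes detected on all 6 arrays, it was 0.21, 0.47 and -0.07 in pairs 1, 2 and 3. For those mock differences it was 0.16 and 0.15 there. The mock arrays lay on different slides, while the arrays of a pair shared a slide. The cause of the trend was not tested. The 9 members higher in pairs 1 and 3 had probes with a median GC content of 45%, and the 21 lower ones 41.7%. The 10 members with opposite signs had the lowest median, 39.2%. The sequences of the 6 brightest probes that cross an exon junction are given to show this range, in lower case with G and C in capitals.
ESPL1 probe A_23_P32707: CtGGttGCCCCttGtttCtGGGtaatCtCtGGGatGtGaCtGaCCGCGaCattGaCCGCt
AURKB probe A_23_P130182: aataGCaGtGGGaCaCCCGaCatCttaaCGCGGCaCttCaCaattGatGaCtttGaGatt
CDK1 probe A_23_P138507: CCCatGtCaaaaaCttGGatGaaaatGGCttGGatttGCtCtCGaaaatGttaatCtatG
BUB1 probe A_23_P124417: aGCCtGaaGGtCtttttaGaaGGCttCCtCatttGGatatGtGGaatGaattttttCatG
KIF20A probe A_23_P256956: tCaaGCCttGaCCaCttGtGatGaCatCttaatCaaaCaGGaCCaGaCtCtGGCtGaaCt
CCNB1 probe A_23_P122197: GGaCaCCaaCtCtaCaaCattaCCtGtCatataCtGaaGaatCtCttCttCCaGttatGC
ESPL1 and AURKB, both higher in all 3 pairs, had probes of 55% and 45% GC, and CDK1 and BUB1 of 36.7%. KIF20A, lower in all 3 pairs, had 45%, and CCNB1, of mixed sign, 40%. The ranges of the sets overlapped, from 31.7% to 55% for the 9 higher and from 35% to 45% for the 21 lower members. CDK1 and UBE2C, at 36.7% and 31.7%, were among the 9 higher, and BUB1B, BUB3, KIF4A and NEK2, at 45%, were among the 21 lower. With the trend on GC removed within each array, the members' medians were -0.18, -0.99 and -0.06 in the 3 pairs, and 11 members were higher and 18 lower in pairs 1 and 3. The corresponding medians of all probes were -0.17, -0.14 and -0.08. On replicates 1 and 3 with the block and this correction, which was chosen after seeing the data, 2 of the 40 members passed in limma. They were CENPF at -0.82 (adjusted p 0.0241 in limma) and KIF4A at -0.76 (adjusted p 0.0417). That fit called 1147 of all 17765 probes.

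Genes of the same processes outside the 40 were taken from lists of 126 names, of which 117 were on the array and 110 were tested. None of the 110 passed the test in the fit without a block (limma), with an unadjusted p under 0.05 for 0 of them. With the block 0 passed, and 15 of the 110 had an unadjusted p below that value, as did 1734 of all 17765 probes. Of the tested genes, 81 were lower and 29 higher, with a median of -0.41, and pair medians of -0.39, -0.64 and 0.06. On replicates 1 and 3 the median was -0.21, next to -0.22 for all probes.

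Condensin, cohesin and shugoshin genes, which hold and compact sister chromatids, had 15 of 18 lower, with a median of -0.56. Over all probes tested, 10089 of 17765 were lower, with a median of -0.11. On replicates 1 and 3 their median was -0.53, and 2 of the 18 passed in that limma fit, which called 3.45% of all probes. Both are cohesin subunits. SMC1A, a core subunit of the cohesin ring, was detected on all 6 arrays and was lower by -1.64, -2.63 and -0.43 in the 3 pairs. Its difference on replicates 1 and 3 was -1.04 (adjusted p 0.0254), and with all arrays -1.57 (SE 1.04, adjusted p 0.999). STAG1, another cohesin subunit, had -0.95 on replicates 1 and 3 (adjusted p 0.0458), but was not well above background on NUDT16 replicates 1 and 2, so this value rests in pair 1 on an array that gave only an upper bound. SMC3 and SMC4, core subunits of cohesin and condensin, had -0.84 and -0.85 there and did not pass (adjusted p 0.0949 and 0.0853 in limma).

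The remaining lists held no gene that passed in any of the 3 fits. Over all probes tested, 10089 of 17765 were lower, with a median of -0.11, and -0.22 on replicates 1 and 3. Inner and outer kinetochore genes had 25 of 29 lower, with a median of -0.47, DSN1 of the MIS12 complex being the lowest at -1.41. Of these, 14 were detected on all 6 arrays, and on replicates 1 and 3 the median of the list was -0.26. APC/C genes had 11 of 14 lower, with a median of -0.39, while ANAPC11, its RING subunit, was the highest at 0.74 and was higher in all 3 pairs by 0.36, 1.14 and 0.70. Spindle and centrosome genes had 16 of 27 lower, with a median of -0.05. Other entry and cytokinesis genes had 14 of 22 lower, with a median of -0.22.

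**Figure D4:**
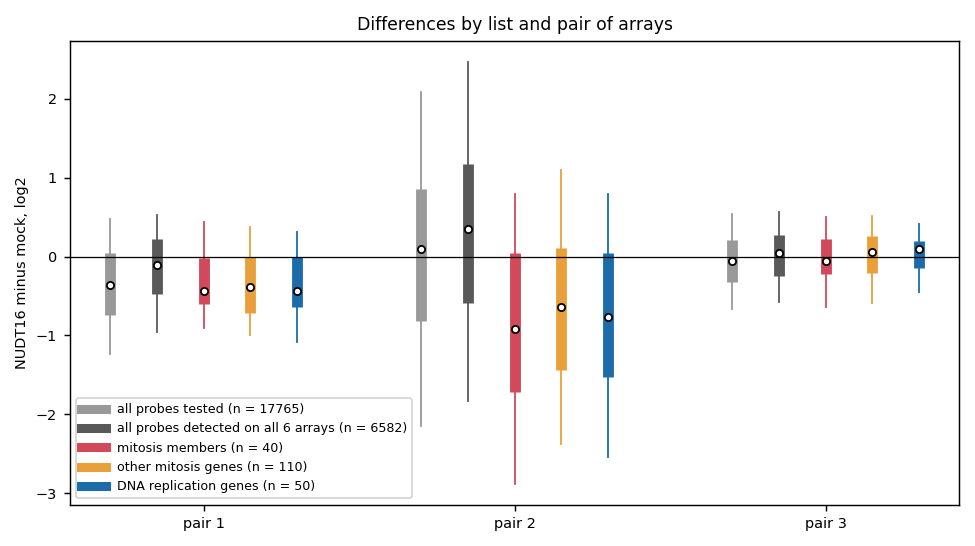
NUDT16 minus mock (log2, vertical axis) in each pair of arrays for all probes tested, all probes detected on all 6 arrays, the 40 mitosis genes, 110 other mitosis genes and 50 DNA replication genes. Circles are medians, thick bars the middle 50% and thin bars the 5th to 95th percentile. The 3 gene lists lie below all probes in pair 2, with medians of -0.92, -0.64 and -0.77 against 0.09, and near them in pair 3.

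The 50 DNA replication genes, some of which are also periodic but peak at the start of S phase, served as the closest comparison. They had 34 lower and 16 higher, with a median of -0.40, and pair medians of -0.44, -0.77 and 0.09. In pairs 1 and 2 these lie close to the mitosis genes' -0.44 and -0.92. In the fits with all arrays, with and without the block, 0 passed. MCM10, a replication initiation factor, passed on replicates 1 and 3 at -1.17 (adjusted p 0.00876 in limma), and was not well above background on NUDT16 replicate 2. It was 1 of 50 in that fit, which called 3.45% of all probes, 601 lower and 12 higher. Whether the mitosis and the replication genes differ was not tested.

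**Figure D5:**
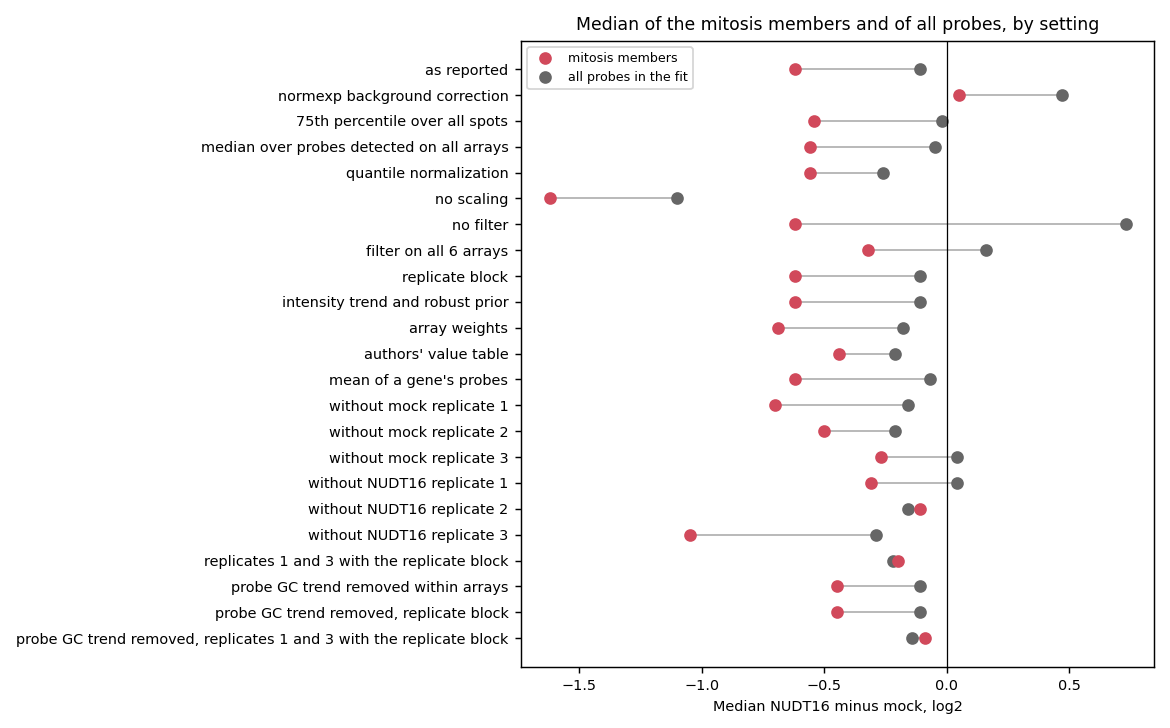
Median NUDT16 minus mock (log2, horizontal axis) over the mitosis genes (red) and over all probes in the same fit (grey) under each processing setting. The red median lies left of the grey one except in the settings without NUDT16 replicate 2, where they are -0.11 and -0.16 without that array, -0.20 and -0.22 on replicates 1 and 3, and -0.09 and -0.14 on those with the GC trend removed.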

How the data were processed

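Agilent design 039494 was used throughout and scanned images were quantified by Feature Extraction 10.7.3.1, with probe coordinates on hg19, per the file headers. The submitters' processing notes name Agilent Feature Extraction and limma. The deposited scanner files hold linear fluorescence intensity per spot, background subtracted by the scanner software and not normalized between arrays, per the file headers. The authors also deposited a table of log2 values, which ranks probes as median minus background intensity does (Spearman's rho 1). How it was centred and scaled is not given in the sources used here, and it served as an alternative.

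Control and outlier spots were left out, spots of a probe averaged, and 13 probes without a usable spot dropped. Each array's log2 intensity was centred on the 75th percentile of the 6582 probes that every array measured well above background, because the percentile over all spots fell among background spots on NUDT16 replicate 2. A probe was tested where every array of at least 1 group measured it well above background (17765 of 50599) with limma 3.58.1 in R 4.3.3, two-sided, with Benjamini-Hochberg adjustment over all of them at 0.05. Most tested probes qualified through the mock arrays, 17730 passing there and 6617 on the NUDT16 arrays. For each gene the brightest probe was used. All members are named, with differences and SE for the 4 highest and 4 lowest and for CCNB1, CDK1, CDC20, BUB1, NDC80 and TOP2A, and for other listed genes where called or extreme. CENPF was singled out after its values were seen. The members and lists were chosen with earlier results of these data known. All 40 symbols are in the RefSeq table (GRCh38.p14), and 38 probe accessions matched it, all with the same symbol. An hg19 annotation was not used here, so exon positions are not given.

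Each slide and scan held the mock and NUDT16 array of 1 replicate number. Same-numbered arrays deviated together from their group means (r of 0.84, 0.39 and 0.77), so the numbers pair the arrays, and number, slide and scan are the same block. The alternatives changed background correction, scaling, filter, prior, weights, probe choice, arrays left out and GC trend. The fits were tested on simulated data.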

Additional observations from a re-analysis of the deposited data

How the results depend on the processing

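With the probe GC trend removed on replicates 1 and 3 with the block (chosen after seeing the data), 2 of 40 members passed, CENPF and KIF4A. That fit called 1147 of the 17765 probes tested. No member passed in any other fit that was run. The replicate block cannot change a difference here, each replicate number having 1 array of each group, so the members' median stayed at -0.62. Their calls stayed at 0, and the same probe, for NUDT16P1, was called with and without the block. Depth is limited by NUDT16 replicate 2, where 17 of 40 members were not well above background. The members' median was 0.05 with normexp background correction (all probes 0.47), -1.62 with no scaling (all probes -1.10), -0.09 with GC removed on replicates 1 and 3, -0.32 with the filter on all 6 arrays (all probes 0.16), and -1.05 to -0.11 with 1 array left out, the last without NUDT16 replicate 2. The count over all probes was 0 with normexp, no scaling, no filter, the filter on all 6 arrays, the authors' value table, and GC removed with the block, 0 to 1 with 1 array left out, 613 on replicates 1 and 3, and 1147 with GC removed there. Without scaling AURKB was -0.51, CDC20 -0.65, ESPL1 -0.40, PLK1 -0.28 and UBE2C -0.41, a setting that shifts all probes, and all 5 lay above the -1.10 of all probes. CDC20 was also -0.04 with GC removed, with and without the block, and -0.12 to 0.86 with 1 array left out. ESPL1 was -0.15 to 1.29 with 1 array left out. CDK1 was 0.14 on replicates 1 and 3 and 0.27 there with GC removed, and TOP2A was 0.08 with normexp. Of 302 values of the 14 genes given with an SE by rule, 287 kept direction and side of the threshold. A further 14 had the opposite sign and 1, for KIF4A, newly passed. Taken alone, the block, filter and prior settings leave a probe's difference unchanged, so their directions were fixed in advance. The causes were not tested.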
